A study of Mus musculus with 24 samples.

Results

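The interaction of IL-33 and IL-13 in mouse alveolar macrophages was measured in 12 of 24 RNA-seq libraries, 3 in each of the groups rIL-33/rIL-13, rIL-33, rIL-13 and Untreated. All groups were primary alveolar macrophages, the resident phagocytes of the air spaces, of genotype WT on the BALB/cJ strain, collected 20 h after stimulation. The animals' age and number and the cytokine doses were not in the labels used here. No label ties the 3 libraries within a group to different animals or wells, so every p-value rests on library-to-library spread, part or all of which could be technical. The remaining 12 libraries were the same 4 groups with rIL-17A added throughout (rIL-33/rIL-13/rIL-17A, rIL-33/rIL-17A, rIL-13/rIL-17A and rIL-17A), and they served as a separate set of libraries for the same comparison.

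IL-13 signals through a receptor of Il4ra and Il13ra1 chains to the transcription factor STAT6 and drives the alternative activation of macrophages. IL-33 is set free when epithelial cells are damaged, and its receptor ST2 (the product of Il1rl1), paired with Il1rap, signals through MyD88 to NF-kB and MAP kinases. Both cytokines belong to allergic lung inflammation, where IL-33 is best known for driving the cells that make IL-13.

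For each gene the change with rIL-13 was taken without rIL-33 (rIL-13 minus Untreated) and with it (rIL-33/rIL-13 minus rIL-33), in log2(TPM + 1), and the interaction is the second minus the first. The authors' TPM values are scaled by the whole gene span, introns included, so a level can be set against that of the same gene in another library but not against another gene. All 17017 listed genes were screened and the 13215 with 1 TPM or more in at least 3 of the 24 libraries were tested. The interaction passed an adjusted p under 0.05 (limma, Benjamini-Hochberg over all tested genes) for 155 genes, 1.17% of those tested, 52 of them above 0 (0.393%) and 103 below (0.779%). Genes that pass are named called. Just inside the threshold lay Agbl5 (adjusted p = 0.0489) and just outside it Hcls1 (adjusted p = 0.0507).

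A called gene was sorted by the ratio of its rIL-13 change with rIL-33 to that without. The rIL-13 change without rIL-33 was itself called for 135 of the 155. It was dampened (ratio over 0.25 and up to 1) in 76 genes, cancelled (within 0.25 of 0) in 30, reversed (under -0.25) in 20 and strengthened (over 1) in 9. These classes rest on the ratio alone. The rIL-13 change with rIL-33 was itself called in 73 of the 76 dampened, 0 of the 30 cancelled and 16 of the 20 reversed genes. In the other 20 of the 155 genes, outside these classes, the rIL-13 change was called with rIL-33 and not without it. Of the 135 sorted genes, 93.3% were thus dampened, cancelled or reversed. Most called genes were ones whose level was above Untreated with rIL-13 and whose interaction was below 0 (91 genes), and a further 48 were below Untreated with rIL-13 with an interaction above 0. The interaction was at least 2-fold in 29 genes and its median size was 0.51 on the log2 scale.

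Promoter windows of 5 called genes are shown first. They are 4 called genes of antioxidant defence, picked because their windows hold a match to the motif searched, and Cxcl3, which holds a match to another and had the interaction farthest below 0 of all called genes. Each is 250 bases before to 50 after the gene's start, taken from RefSeq on GRCm38.p6 and written 5′ to 3′ on the gene's strand. Prdx1 is at chr4:116685349-116685648 (+), Srxn1 at chr2:152105274-152105573 (+), Gclm at chr3:122245307-122245606 (+), G6pdx at chrX:74428831-74429130 (-) and Cxcl3 at chr5:90785851-90786150 (+). In the first 4 the capitals mark a match to the core of the antioxidant response element, TGACNNNGC on either strand, which is the kind of site that the transcription factor Nrf2 binds. In Cxcl3 they mark 2 overlapping matches, 1 per strand, to an NF-kB core, GGGA and TTCC set apart by any pair of bases.
Prdx1: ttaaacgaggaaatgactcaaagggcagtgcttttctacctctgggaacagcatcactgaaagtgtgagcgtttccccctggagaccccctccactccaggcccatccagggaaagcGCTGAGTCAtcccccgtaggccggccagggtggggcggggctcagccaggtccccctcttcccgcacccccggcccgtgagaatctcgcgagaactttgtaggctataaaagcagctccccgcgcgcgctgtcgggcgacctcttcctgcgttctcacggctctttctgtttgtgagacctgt
Srxn1: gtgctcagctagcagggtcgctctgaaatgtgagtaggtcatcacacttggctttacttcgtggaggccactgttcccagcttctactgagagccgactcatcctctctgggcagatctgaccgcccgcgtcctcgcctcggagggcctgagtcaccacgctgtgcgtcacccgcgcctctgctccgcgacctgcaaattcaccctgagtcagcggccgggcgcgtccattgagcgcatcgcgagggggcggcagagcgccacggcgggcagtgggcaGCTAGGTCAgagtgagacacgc
Gclm: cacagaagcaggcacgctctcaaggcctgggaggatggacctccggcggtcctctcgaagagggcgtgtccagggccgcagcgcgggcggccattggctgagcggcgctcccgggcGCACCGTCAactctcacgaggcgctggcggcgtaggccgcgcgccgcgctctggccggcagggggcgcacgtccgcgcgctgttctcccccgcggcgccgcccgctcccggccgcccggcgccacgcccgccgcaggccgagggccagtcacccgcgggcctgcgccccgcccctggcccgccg
G6pdx: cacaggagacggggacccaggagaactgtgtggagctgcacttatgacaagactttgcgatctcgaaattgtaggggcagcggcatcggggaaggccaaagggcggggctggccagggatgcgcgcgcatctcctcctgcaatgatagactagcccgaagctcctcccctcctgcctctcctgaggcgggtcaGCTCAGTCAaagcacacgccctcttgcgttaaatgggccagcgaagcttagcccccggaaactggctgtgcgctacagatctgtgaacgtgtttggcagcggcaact
Cxcl3: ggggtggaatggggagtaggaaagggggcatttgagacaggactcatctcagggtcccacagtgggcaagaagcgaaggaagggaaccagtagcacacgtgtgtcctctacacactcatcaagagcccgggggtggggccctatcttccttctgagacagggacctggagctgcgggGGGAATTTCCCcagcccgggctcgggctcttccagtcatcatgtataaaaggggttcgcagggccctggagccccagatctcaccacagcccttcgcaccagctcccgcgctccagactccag
The match began 133 bases before the start in Prdx1, 134 before in Gclm, 57 before in G6pdx and 28 after in Srxn1, and that of Cxcl3 began 73 bases before. The antioxidant core was found in 6 of the 9 called antioxidant genes with a window (66.7%), the 4 above with Pgd and Txnrd1, against 3781 of all 27018 genes with one and 17.2% of the tested genes with one. Of the 19 tested list members with a window, called or not, 9 held it (47.4%), and the called members Cat, Nqo1 and Sod2 did not. Some genes have more than 1 window, and a match in any was counted. The NF-kB core was found in 5 of 72 genes above Untreated with rIL-13 and with an interaction below 0 (6.94%), against 1.63% of all genes and 1.81% of the tested genes: Anxa4, Birc5, Ces2c, Cxcl3 and Slc6a12. A STAT6 site, TTC and GAA set apart by any 4 bases and searched on both strands like the others, was found in 5 of the same 72 (6.94%), against 8.01% of all genes and 6.29% of the tested genes. The antioxidant core was in 12 of the same 72 (16.7%). These counts describe letters in the windows and not binding, and the antioxidant list was drawn up to include Nrf2 targets.

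Antioxidant genes were the gene list with the most called members, though the lists were chosen with earlier results of these data known. Of 22 tested genes of antioxidant defence and Nrf2 targets, 10 had a called interaction below 0 and none above, where 0.779% of all tested genes were called below 0. The median interaction over the 22 was -0.35, against 0.00 over all tested genes. With rIL-33 the median rIL-13 change of the list was -0.05, and without rIL-33 it was 0.27.

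Prdx1, a peroxiredoxin that reduces hydrogen peroxide, had 975, 936 and 968 TPM in the rIL-33/rIL-13 libraries and 1127, 1201 and 1168 TPM in the rIL-33 libraries. It had 1391, 1364 and 1449 TPM with rIL-13, against 1135, 1078 and 1116 TPM in Untreated. The rIL-13 libraries were thus above every other library and the rIL-33/rIL-13 libraries below every other, and the interaction was -0.62 (SE 0.05, limma adjusted p = 5.43e-06). Srxn1, which repairs overoxidised peroxiredoxins, had 617, 673 and 651 TPM with rIL-33/rIL-13, 737, 765 and 762 TPM with rIL-33, 991, 1015 and 1028 TPM with rIL-13, and 622, 722 and 711 TPM in Untreated. Its rIL-13 libraries stood above all others, while the rIL-33/rIL-13 libraries overlapped Untreated, and the interaction was -0.79 (SE 0.08, limma adjusted p = 1.27e-05). Cat, the catalase gene, followed the pattern of Prdx1 with means of 106, 121, 144 and 119 TPM in rIL-33/rIL-13, rIL-33, rIL-13 and Untreated (interaction -0.46, adjusted p = 1.27e-05).

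Gclm, the modifier subunit of the enzyme that starts glutathione synthesis, had 39.0, 40.6 and 39.9 TPM with rIL-33/rIL-13, 31.3, 32.97 and 33.9 TPM with rIL-33, 61.2, 65.5 and 63.2 TPM with rIL-13, and 29.6, 31.5 and 32.8 TPM in Untreated. Here rIL-13 raised the gene in both settings, and less with rIL-33 (interaction -0.72, SE 0.08, limma adjusted p = 3.3e-05). Nqo1, a quinone reductase, had 3.06, 2.94 and 2.96 TPM with rIL-33/rIL-13, 2.55, 3.70 and 2.93 TPM with rIL-33, 8.91, 7.70 and 8.29 TPM with rIL-13, and 2.73, 2.34 and 2.42 TPM in Untreated. The rise with rIL-13 was seen in the libraries without rIL-33, and with rIL-33 the groups overlapped (interaction -1.43, SE 0.20, limma adjusted p = 0.000415).

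The other called members were Pgd and G6pdx, which supply NADPH through the pentose phosphate pathway, Txnrd1 and Gsr, which reduce thioredoxin and glutathione, and Sod2, the mitochondrial superoxide dismutase. Their interactions ran from -0.44 for Txnrd1 to -0.34 for Sod2. Members that were not called included the regulators Nfe2l2, which encodes Nrf2 (-0.11, 95% interval -0.25 to 0.03), and Keap1, its inhibitor (-0.11, -0.35 to 0.12). Hmox1, heme oxygenase 1, had -0.18 with an adjusted p of 0.0556, and Txn1 was the only member of the 22 with a value above 0 (0.04). Gclm overlaps Gm17494 on the other strand and Gm6061 on its own, G6pdx overlaps Ikbkg on the other strand, and Txnrd1 overlaps Gm38560 and Gm47073 on the other strand and Eid3 on its own. Since the handling of strand is not given, their reads could include those of these genes. Several further called genes of redox and heme metabolism lay outside the list and were picked out after their values were seen. Blvrb, biliverdin reductase B, averaged 83.6, 76.0, 126 and 69.7 TPM in rIL-33/rIL-13, rIL-33, rIL-13 and Untreated. Prdx6, another peroxiredoxin, averaged 65.0, 76.2, 96.3 and 73.6 TPM in rIL-33/rIL-13, rIL-33, rIL-13 and Untreated. Ptgr1, a prostaglandin reductase, had 42.4, 41.1 and 43.4 TPM with rIL-33/rIL-13, 50.3, 50.9 and 49.1 TPM with rIL-33, 65.8, 72.8 and 69.4 TPM with rIL-13, and 43.8, 46.2 and 44.7 TPM in Untreated (interaction -0.85, SE 0.08, limma adjusted p = 5.43e-06).

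**Figure D1:**
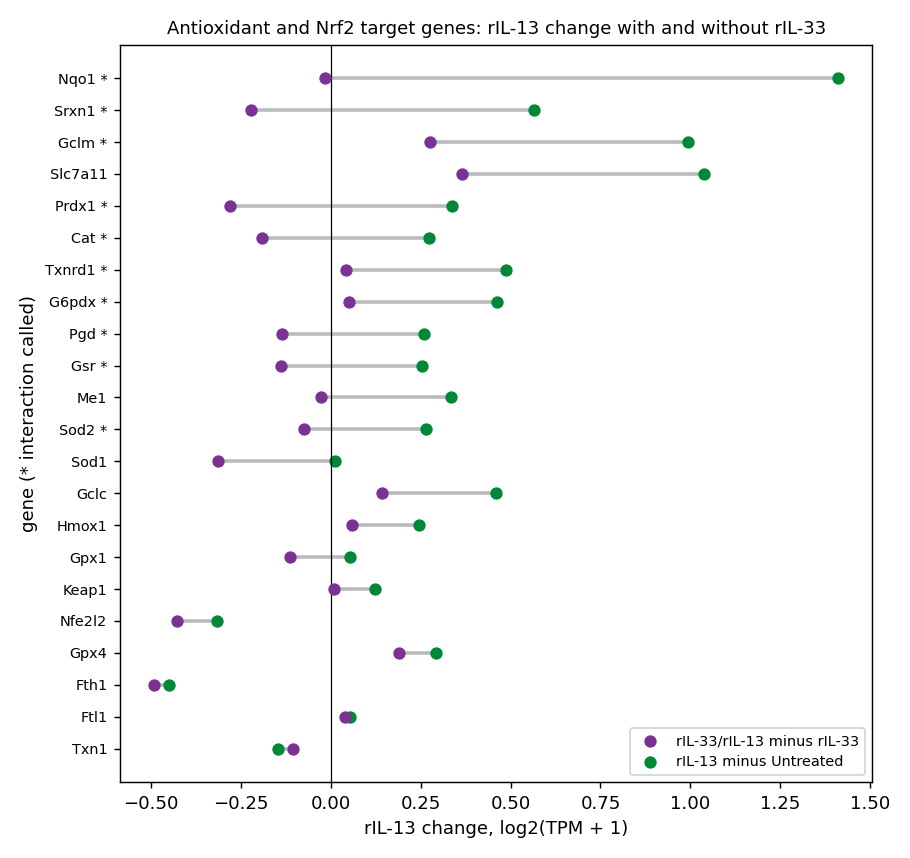
The rIL-13 change in log2(TPM + 1) is plotted for the 22 tested antioxidant and Nrf2 target genes, with rIL-33 (rIL-33/rIL-13 minus rIL-33, purple) and without it (rIL-13 minus Untreated, green), 3 libraries per group. Genes are ordered by the interaction, asterisks mark the 10 called ones, and the purple point lies left of the green one in 21 of 22 genes.

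Inflammatory genes held the largest interaction. Cxcl3, whose product attracts neutrophils, had 26.5, 27.9 and 25.1 TPM with rIL-33/rIL-13, 7.75, 5.08 and 6.70 TPM with rIL-33, 161, 139 and 142 TPM with rIL-13, and 4.81, 7.505 and 5.19 TPM in Untreated. The rIL-13 groups lay above their references in both settings without overlap, and the interaction was -2.57 (SE 0.29, limma adjusted p = 5.61e-05). Its window is printed above. Il1b, the gene of interleukin 1 beta, had 30.9, 36.4 and 33.01 TPM with rIL-33/rIL-13, 8.10, 5.91 and 7.43 TPM with rIL-33, 72.6, 59.9 and 65.5 TPM with rIL-13, and 5.598, 4.59 and 5.83 TPM in Untreated. The rise with rIL-13 was again present in both settings and smaller with rIL-33 (interaction -1.32, SE 0.17, limma adjusted p = 0.000205).

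Acod1, which makes the metabolite itaconate, had 7.73, 11.7 and 9.04 TPM with rIL-33/rIL-13, 23.01, 18.4 and 22.1 TPM with rIL-33, 21.8, 24.6 and 27.6 TPM with rIL-13, and 15.9, 18.5 and 20.1 TPM in Untreated. It fell with rIL-13 where rIL-33 was present, while the change without rIL-33 was 0.42 and not called (limma adjusted p = 0.0703), and the interaction was -1.51 (SE 0.24, limma adjusted p = 0.00165). Every rIL-13 library was nonetheless above every Untreated one. In the libraries with rIL-17A, Acod1 rose with rIL-13 without rIL-33 (0.69, limma adjusted p = 0.00392). There it fell with rIL-13 where rIL-33 was present (-0.92, limma adjusted p = 0.000355). Tnf had 92.7, 104 and 102 TPM with rIL-33/rIL-13, 172, 141 and 168 TPM with rIL-33, 120.0, 116 and 132 TPM with rIL-13, and 118, 137 and 127 TPM in Untreated. The rIL-33 libraries were the highest and the rIL-33/rIL-13 libraries the lowest (interaction -0.63, SE 0.12, limma adjusted p = 0.0086). In the libraries with rIL-17A the Tnf interaction was 0.06 (adjusted p = 0.825).

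Of 27 tested NF-kB subunits, feedback genes and targets, 5 were called, all below 0 (against 0.779% of all tested genes): Cxcl3, Il1b, Acod1, Tnf and Sod2. The subunit genes Rela, Relb, Rel, Nfkb1 and Nfkb2 and the inhibitor gene Nfkbia were not called, at -0.42 to 0.01. Of 14 tested chemokines, 3 were called, all below 0 (against the same 0.779%). Besides Cxcl3 these were Ccl6, at means of 485, 163, 807 and 176 TPM in rIL-33/rIL-13, rIL-33, rIL-13 and Untreated (interaction -0.62, limma adjusted p = 0.00157), and Ccl9, at 206, 126, 398 and 115 TPM in rIL-33/rIL-13, rIL-33, rIL-13 and Untreated (-1.08, limma adjusted p = 0.00194). Both encode chemokines of the CC family, and Ccl6 overlaps a gene on the other strand (E230016K23Rik). Cxcl2 and Cxcl1, close relatives of Cxcl3 that share its receptor, had interactions of -1.28 and -1.18 that were not called (limma adjusted p = 0.0737 and 0.125). Because the Cxcl genes are alike in sequence, how reads were shared among them is uncertain.

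Among genes of matrix and tissue remodelling, 4 of 16 tested were called below 0 and 1 above, against 0.779% and 0.393% of all tested genes. Mmp13, a collagenase, had 229, 269 and 263 TPM with rIL-33/rIL-13, 29.0, 20.0 and 25.1 TPM with rIL-33, 502, 502 and 501 TPM with rIL-13, and 19.2, 22.2 and 28.4 TPM in Untreated. The interaction was -1.07 (SE 0.19, limma adjusted p = 0.00477), with a rise in both settings. Mmp19, a stromelysin-like protease, had 270.2, 299 and 282 TPM with rIL-33/rIL-13, 64.4, 69.7 and 74.4 TPM with rIL-33, 464, 477 and 477 TPM with rIL-13, and 62.5, 67.5 and 64.7 TPM in Untreated (-0.83, SE 0.09, limma adjusted p = 5.06e-05). It overlaps Tmem198b on the other strand.

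Mmp8, a collagenase first known from neutrophils, had 23.9, 31.7 and 29.9 TPM with rIL-33/rIL-13, 23.8, 34.97 and 24.6 TPM with rIL-33, 58.1, 58.0 and 73.5 TPM with rIL-13, and 22.7, 25.01 and 23.8 TPM in Untreated. Its rise was thus cancelled, with overlapping groups where rIL-33 was present (interaction -1.32, SE 0.20, limma adjusted p = 0.00145). Of the 14 neutrophil and eosinophil markers 4 were in the tables, Mmp8 itself among them, and their sum was 99.0 to 133 TPM with rIL-33/rIL-13, 160 to 174 TPM with rIL-33, 149 to 151 TPM with rIL-13 and 161 to 188 TPM in Untreated. None of the 4 was at 0 in a whole group. S100a8 held the most of the sum in each group, with an interaction of 0.10 (95% interval -0.33 to 0.54), and the part of such cells in the Mmp8 result was not tested. Since TPM is scaled by gene span, the largest share of a sum does not rank genes by abundance. Igf1, a growth factor, was dampened (14.1, 5.74, 20.7 and 6.11 TPM in rIL-33/rIL-13, rIL-33, rIL-13 and Untreated), and its call was lost without rIL-13 replicate 1 or rIL-33 replicate 2 (adjusted p up to 0.0574). Spp1, osteopontin, fell with rIL-13 and fell less with rIL-33: it averaged 479 TPM with rIL-33/rIL-13 and 816 TPM with rIL-33, and 352 TPM with rIL-13 against 763 TPM in Untreated (interaction 0.35, limma adjusted p = 0.0294).

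Proliferation genes pointed the same way with fewer calls. Of 27 tested cell cycle genes, 4 were called below 0 (against 0.779% of all tested genes) and 26 had a value below 0 (against 6454 of 13215), with a median interaction of -0.41. Mki67, a marker of dividing cells, had 2.59, 2.47 and 1.92 TPM with rIL-33/rIL-13, 1.36, 1.29 and 1.47 TPM with rIL-33, 6.76, 6.67 and 6.17 TPM with rIL-13, and 1.23, 1.79 and 1.18 TPM in Untreated. The rIL-13 libraries were above all others (interaction -1.18, SE 0.22, limma adjusted p = 0.00889). Top2a, a topoisomerase of dividing cells, averaged 1.55, 0.811, 3.88 and 0.820 TPM in rIL-33/rIL-13, rIL-33, rIL-13 and Untreated (-0.94, limma adjusted p = 0.0167). The calls of Top2a, Cdk1 and Birc5 were lost when single libraries were left out, Top2a without Untreated replicate 2, rIL-33 replicate 3 or rIL-33/rIL-13 replicate 3 (adjusted p up to 0.0545). With single libraries left out the list had 2 to 5 calls, and it had 2 without Untreated replicate 3, rIL-13 replicate 2 or 3, rIL-33 replicate 3, or rIL-33/rIL-13 replicate 1 or 3. In bulk libraries fewer dividing cells and less RNA per cell cannot be told apart.

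**Figure D2:**
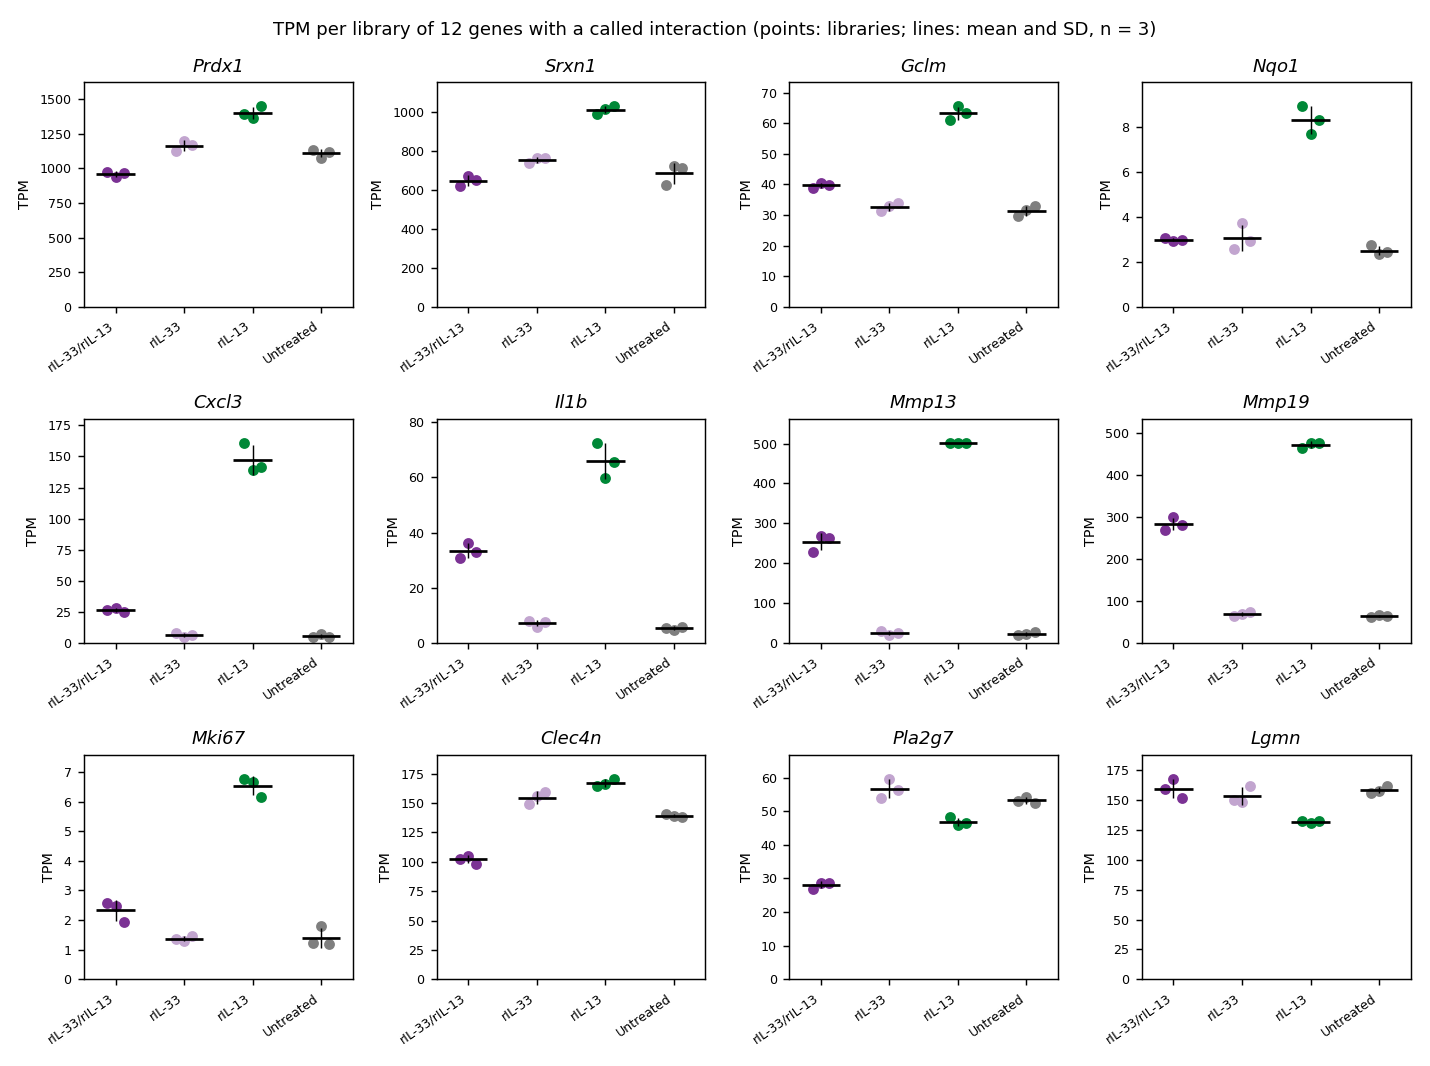
TPM per library (points) with the group mean and SD (lines, n = 3) is shown for 12 called genes in the groups rIL-33/rIL-13, rIL-33, rIL-13 and Untreated. In Nqo1, Cxcl3, Il1b, Mmp13, Mmp19 and Mki67 the rIL-13 libraries lie above all others, in Pla2g7 and Clec4n the rIL-33/rIL-13 libraries lie below all others, and in Lgmn the rIL-13 libraries are the lowest.

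Several receptor and lipid mediator genes were lowest with rIL-33/rIL-13. Clec4n, which encodes the fungal receptor Dectin-2, had 103, 105 and 98.5 TPM with rIL-33/rIL-13, 149, 156 and 159 TPM with rIL-33, 165, 166 and 171 TPM with rIL-13, and 141, 139 and 138 TPM in Untreated. It rose with rIL-13 alone and fell with rIL-13 in the presence of rIL-33 (interaction -0.86, SE 0.07, limma adjusted p = 1.1e-06). Clec4d, a lectin receptor of the same family, fell in both settings, and more with rIL-33, at means of 112, 285, 164 and 278 TPM in rIL-33/rIL-13, rIL-33, rIL-13 and Untreated (-0.59, limma adjusted p = 6.77e-05). Pla2g7, which breaks down platelet-activating factor, had 26.9, 28.7 and 28.7 TPM with rIL-33/rIL-13, 54.0, 59.7 and 56.3 TPM with rIL-33, 48.2, 45.8 and 46.5 TPM with rIL-13, and 53.0, 54.4 and 52.4 TPM in Untreated. Its fall with rIL-13 was strengthened (interaction -0.80, SE 0.06, limma adjusted p = 1.1e-06). Pla2g7 overlaps 1700071M16Rik on the other strand. Alox5ap, needed for leukotriene synthesis, was also strengthened, at 28.6, 45.7, 41.1 and 46.1 TPM in rIL-33/rIL-13, rIL-33, rIL-13 and Untreated (-0.49, limma adjusted p = 0.00104).

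The formyl peptide receptor genes Fpr1 and Fpr2, which sense bacterial and mitochondrial peptides, rose with rIL-13 alone. Fpr1 had 7.60, 6.73 and 6.06 TPM with rIL-33/rIL-13, 12.8, 9.81 and 11.2 TPM with rIL-33, 20.3, 15.8 and 14.6 TPM with rIL-13, and 9.71, 10.5 and 8.91 TPM in Untreated, so its change was reversed (interaction -1.38, SE 0.25, limma adjusted p = 0.00681). Fpr2 was cancelled, at means of 26.3, 25.3, 55.1 and 25.9 TPM in rIL-33/rIL-13, rIL-33, rIL-13 and Untreated (-1.01, limma adjusted p = 0.00194). Ass1, an enzyme of arginine synthesis, was reversed, at 26.3, 36.9, 39.2 and 31.2 TPM in rIL-33/rIL-13, rIL-33, rIL-13 and Untreated (-0.79, limma adjusted p = 3.9e-05).

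Genes strengthened upward were 2. Rbp4, a retinol carrier, had 53.7, 48.7 and 44.3 TPM with rIL-33/rIL-13, 7.66, 7.31 and 8.13 TPM with rIL-33, 32.7, 27.7 and 32.7 TPM with rIL-13, and 7.16, 8.54 and 8.39 TPM in Untreated (interaction 0.69, SE 0.12, limma adjusted p = 0.0052). With limma-voom on recovered reads its call was lost (adjusted p = 0.121). Srprb, a subunit of the signal recognition particle receptor, was the other (0.25, limma adjusted p = 0.0125). The Srprb call was lost with limma-voom and in the fit of the 12 libraries alone (adjusted p up to 0.0734), and with rIL-17A its interaction was 0.01 (adjusted p = 0.965). Hcar2, a receptor of short fatty acids and ketone bodies, rose with rIL-13 in the presence of rIL-33, at means of 620.0, 403, 419.6 and 381 TPM in rIL-33/rIL-13, rIL-33, rIL-13 and Untreated (0.48, limma adjusted p = 0.00605). Without rIL-33 its rIL-13 change was 0.14, with every rIL-13 library above every Untreated one, and was not called (limma adjusted p = 0.107).

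Genes that rIL-13 lowered included several of the lysosome, and their fall was smaller with rIL-33. Lgmn, the lysosomal protease legumain, had 159.6, 168 and 152 TPM with rIL-33/rIL-13, 149.8, 149 and 162 TPM with rIL-33, 132, 131 and 132 TPM with rIL-13, and 156, 158 and 162 TPM in Untreated. The rIL-13 libraries were below all others (interaction 0.32, SE 0.05, limma adjusted p = 0.00117). Plbd1, a phospholipase-like lysosomal protein, had 5.34, 6.25 and 6.44 TPM with rIL-33/rIL-13, 5.78, 6.30 and 6.07 TPM with rIL-33, 3.05, 3.06 and 2.92 TPM with rIL-13, and 5.75, 7.24 and 6.13 TPM in Untreated (0.86, SE 0.12, limma adjusted p = 0.000469). Hpse, heparanase, was dampened, at 10.7, 17.6, 6.96 and 18.4 TPM in rIL-33/rIL-13, rIL-33, rIL-13 and Untreated (0.61, limma adjusted p = 0.00023). No lysosomal list had been drawn up, and Hexa, Lamp1, Ctsd, Naaa, Pld3 and Dpp7, picked out after their values were seen, had called interactions of 0.17 to 0.32. The Ctsd interaction was 0.00 in the libraries with rIL-17A, and Lamp1 and Ctsd overlap other genes (Grtp1 and Gm49369). Aebp1, a carboxypeptidase-like protein, was dampened too, at 26.3, 45.3, 12.4 and 38.5 TPM in rIL-33/rIL-13, rIL-33, rIL-13 and Untreated (0.79, limma adjusted p = 0.00154).

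**Figure D3:**
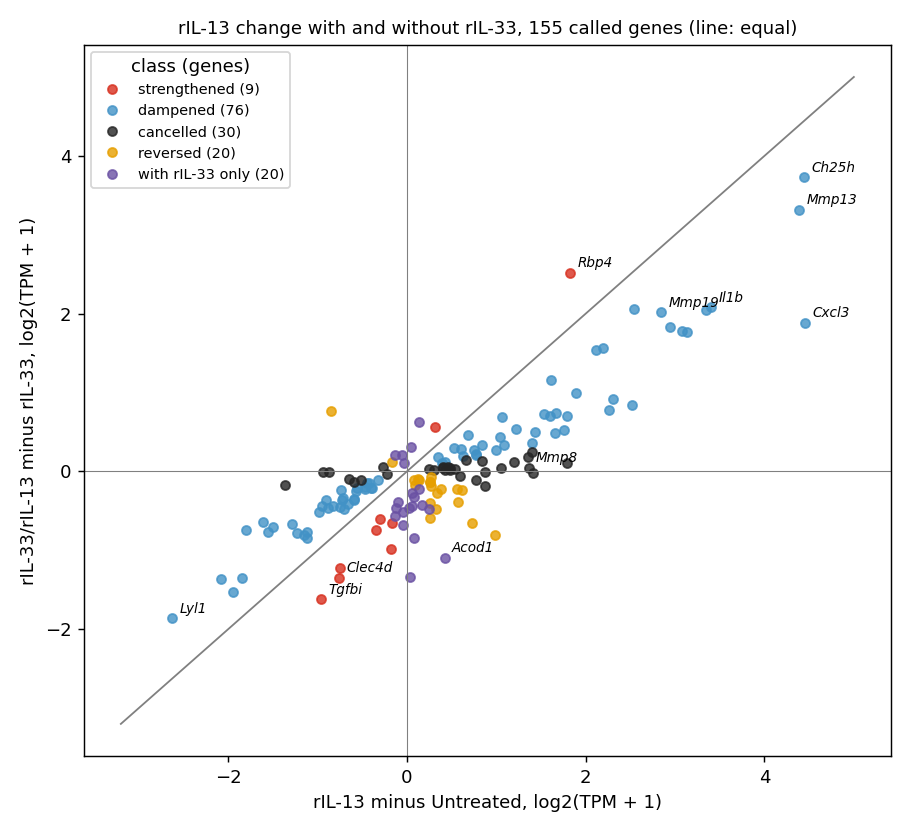
The rIL-13 change in log2(TPM + 1) with rIL-33 (vertical axis) is plotted against that without rIL-33 (horizontal axis) for the 155 called genes, coloured by class, with the number of genes per class in the legend. The largest class, 76 dampened genes (blue), lies between the line of equal change and the horizontal zero line.

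The hallmark genes of alternative activation mostly had interactions below 0, and 2 were called. Of 25 tested, 2 were called below 0 (against 0.779% of all tested genes), Ch25h and Chil4, and 21 had a value below 0 (against 6454 of 13215), with a median of -0.16. With single libraries left out, 0 or 1 member of the list was called. The Ch25h call was lost in 11 of 20 alternative settings and the Chil4 call in 14 of 19. Chil4 averaged 0.676 TPM in rIL-33/rIL-13 and 1.89 TPM in rIL-13, and was at 0 in every rIL-33 and Untreated library. With rIL-17A neither was called (Ch25h -0.28, limma adjusted p = 0.475, and Chil4 -0.57, limma adjusted p = 0.164). Cish, a feedback inhibitor of STAT signalling, had 116, 133 and 129 TPM with rIL-33/rIL-13, 0.743, 0.985 and 0.971 TPM with rIL-33, 142, 143 and 119.8 TPM with rIL-13, and 0.777, 1.73 and 0.298 TPM in Untreated. The rise with rIL-13 was present in both settings, and the interaction was -0.13 with a 95% interval of -0.73 to 0.46. Chil3, the chitinase-like protein Ym1, averaged 4342, 366 and 5167 TPM in rIL-33/rIL-13, rIL-33 and rIL-13 and 382 TPM in Untreated (-0.19, 95% interval -0.30 to -0.08, limma adjusted p = 0.0959). Ccl22 (0.06, -0.61 to 0.72) and Irf4 (-0.30, -0.67 to 0.06) were likewise not called. In the libraries with rIL-17A the list had 2 members called below 0, against 0.885% of all tested genes. The Chil3 interaction was called there (-0.23, limma adjusted p = 0.032). Chil3 was also lower in rIL-33/rIL-13 than in rIL-13 (-0.25, limma adjusted p = 0.00052). Retnla, the gene of RELM alpha, had 3.998, 1.61 and 1.51 TPM with rIL-33/rIL-13 and 0.932, 0 and 0 TPM with rIL-13, and was listed at 0 in all 6 libraries without rIL-13 (1.36, limma adjusted p = 0.138). Its highest value came from rIL-33/rIL-13 replicate 1.

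The receptor of IL-33 was barely detected. Il1rl1 lay between 0.0269 and 0.0609 TPM with rIL-33/rIL-13, 0.0273 and 0.0619 TPM with rIL-33, 0.0745 and 0.256 TPM with rIL-13, and 0 and 0.0293 TPM in Untreated, 26 recovered reads over the 12 libraries, and it was not tested. Il1rap averaged 2.72, 1.61, 2.59 and 1.52 TPM in rIL-33/rIL-13, rIL-33, rIL-13 and Untreated, with an interaction of -0.01 (95% interval -0.26 to 0.25). None of 19 tested genes of IL-33 receptor and MyD88 signalling and none of 21 of IL-13 receptor and JAK-STAT signalling was called. Their values were -0.32 to 0.26 over both lists. Of all tested genes 1.17% were called, so the lack of a call in lists of this size does not set them apart. Likewise no gene was called for cholesterol biosynthesis (22 tested), the interferon response (11) or antigen presentation (10). The lists of lipid handling (Apoe, 21 tested), hypoxia and glycolysis (Slc2a1, 19), integrated stress response (Slc3a2, 17) and macrophage fusion (Dcstamp, 16) had 1 call each. So did immediate early genes (Dusp4, 19), alveolar macrophage identity (Krt79, 24) and monocyte genes (Csf1r, 10). Apoe was above 0 (against 0.393% of all tested genes) and the other 6 below 0 (against 0.779%). Values below 0 were found in 20 of the 22 cholesterol genes, 3 of the 11 interferon genes and 2 of the 10 antigen presentation genes, against 6454 of all 13215 tested genes. The median rIL-13 change of the cholesterol list was 0.20 with rIL-33 and 0.38 without. Krt79, a keratin of alveolar macrophages, had 19.7, 16.1 and 18.3 TPM with rIL-33/rIL-13, 3.74, 3.63 and 3.38 TPM with rIL-33, 48.6, 42.7 and 39.6 TPM with rIL-13, and 3.63, 3.45 and 3.03 TPM in Untreated (-1.30, SE 0.15, limma adjusted p = 7.27e-05). Dcstamp, needed for macrophage fusion, averaged 7.17, 3.91, 12.3 and 3.21 TPM in rIL-33/rIL-13, rIL-33, rIL-13 and Untreated (-0.93, limma adjusted p = 0.00477). The calls of Apoe, Slc3a2, Dusp4 and Csf1r were lost in several fits that left out 1 library. That of Slc2a1 was lost in the fit of the 12 libraries alone (limma adjusted p = 0.0969).

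**Figure D4:**
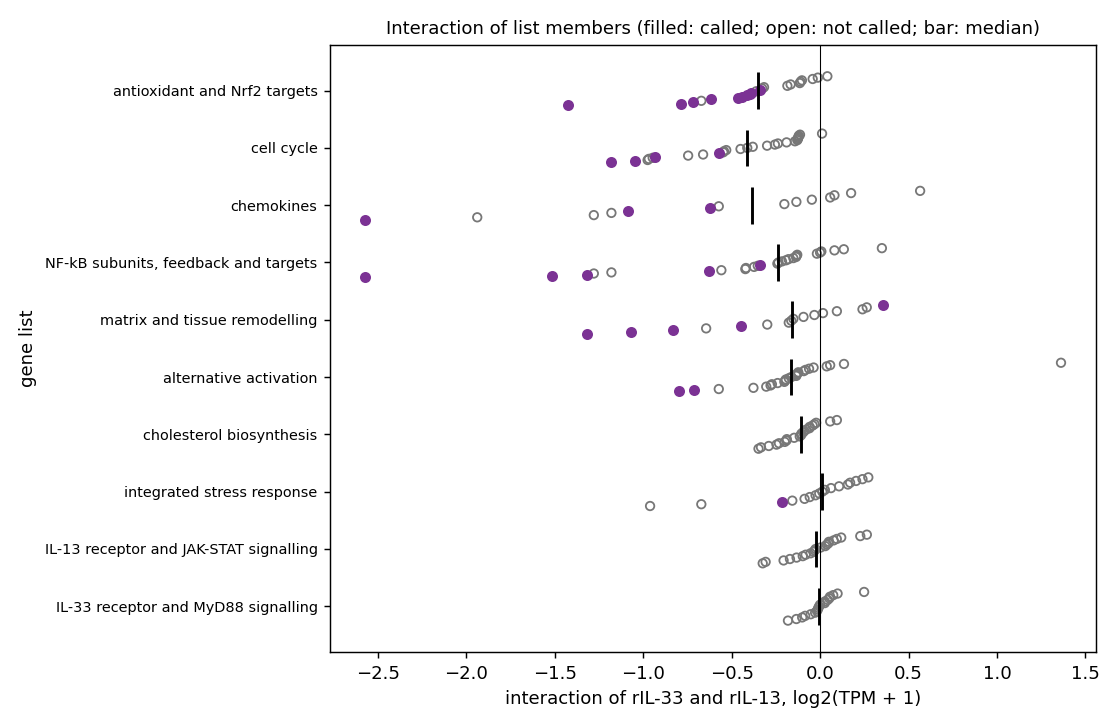
The interaction in log2(TPM + 1) is plotted for each tested member of 10 gene lists, with called genes filled, other genes open and the list median as a bar. The median is -0.35 for antioxidant genes and -0.41 for cell cycle genes, and near 0 for both receptor signalling lists.

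The single comparisons that make up the interaction were also counted over all tested genes. In rIL-33 against Untreated no gene was called (0% of those tested), with 484 at an unadjusted p under 0.05 in limma and 1 called in a fit of the 12 libraries alone. In rIL-33/rIL-13 against rIL-13, 110 genes were higher (0.832%) and 230 lower (1.74%), 2.57% in all. In rIL-33/rIL-13 against rIL-33, 1475 were higher (11.2%) and 1686 lower (12.8%), 23.9% in all, and in rIL-13 against Untreated 1857 were higher (14.1%) and 2075 lower (15.7%), 29.8% in all. The 4 comparisons share libraries, so their counts are not independent of each other. Nor do the counts place the interaction of a given gene. Tnf changed by 0.33 in rIL-33 against Untreated and by -0.30 in rIL-33/rIL-13 against rIL-13, and was called in neither.

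Because the interaction subtracts the rIL-13 change without rIL-33, error in that change alone leans the sort towards dampening. The rIL-13 change was therefore compared in genes chosen on other libraries, those called in rIL-13/rIL-17A against rIL-17A. In the 1614 genes raised there, the median rIL-13 change was 0.31 with rIL-33 and 0.40 without. The change was smaller in size with rIL-33, whatever its sign, in 69.1% of them. In the 2329 genes lowered there, the medians were -0.25 with rIL-33 and -0.32 without, and 69.5% had the change of smaller size with rIL-33. In the 213 genes raised there by at least 1 on the log2 scale the medians were 1.05 with rIL-33 and 1.40 without, and 79.8% had the change of smaller size with rIL-33. In the 152 lowered there by at least 1 the medians were -0.92 with rIL-33 and -1.10 without, and 68.4% had the change of smaller size with rIL-33.

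The interaction was then measured in the 12 libraries with rIL-17A, which share no library with the 12 above but enter the same fit. There 200 genes were called (1.51% of those tested), 83 above 0 (0.628%) and 117 below (0.885%). Of the 155 genes, 149 (96.1%) had the same sign in both sets, against 57.3% of all tested genes. The same interaction was called in both sets for 93 genes, which is 60.0% of the 155 and 46.5% of the 200. The 6 genes with the other sign were Ctsd, Tnf, Agbl5, Gm6377, Gm16310 and Gm15445. The difference between the sets itself was called for no gene in limma (smallest adjusted p = 0.312, 535 genes at an unadjusted p under 0.05).

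Prdx1 had 953, 1026 and 932 TPM with rIL-33/rIL-13/rIL-17A, 1106, 1083 and 1119 TPM with rIL-33/rIL-17A, 1382, 1441 and 1365 TPM with rIL-13/rIL-17A, and 1015, 1027 and 1105 TPM with rIL-17A (interaction -0.60, limma adjusted p = 9.24e-06). Cxcl3 had 24.3, 23.5 and 21.5 TPM with rIL-33/rIL-13/rIL-17A, 6.82, 6.73 and 3.89 TPM with rIL-33/rIL-17A, 151, 154 and 188 TPM with rIL-13/rIL-17A, and 7.89, 3.73 and 6.13 TPM with rIL-17A (-2.76, limma adjusted p = 3.31e-05). In Prdx1 the rIL-13/rIL-17A libraries were above all others, with the rIL-33/rIL-13/rIL-17A libraries below those of rIL-33/rIL-17A and overlapping rIL-17A. In Cxcl3 the rIL-13/rIL-17A libraries were the highest, followed by rIL-33/rIL-13/rIL-17A, with the other groups overlapping. Pla2g7 (-0.73), Clec4n (-0.69), Srxn1 (-0.75) and Gclm (-0.76) were also called there. The antioxidant list had 13 of 22 members called below 0 in these libraries and the cell cycle list 12 of 27, against 0.885% of all tested genes.

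**Figure D5:**
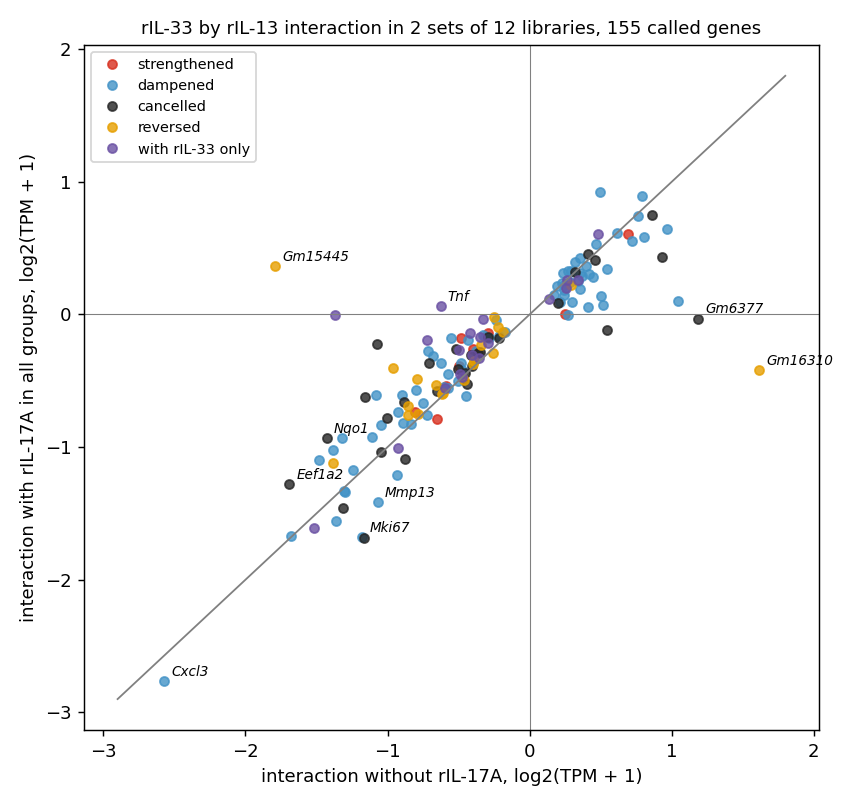
The interaction in log2(TPM + 1) with rIL-17A in all groups (vertical axis) is plotted against that without rIL-17A (horizontal axis) for the 155 called genes, coloured by class, with the line of equal values. Of the points, 149 fall in the lower left and upper right quadrants, and Tnf, Gm6377, Gm16310 and Gm15445 are labelled among the 6 that do not.

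The libraries of the 4 groups held 9.13 to 11.6 M recovered reads and 11845 to 12145 genes at 1 TPM or more. The first principal component of the 12 held 31.3% of the variance and parted libraries with rIL-13 from those without, and the second (8.6%) set Untreated replicate 1 apart. Without that library 7 of the 22 antioxidant genes were called, the lowest count of the 12 fits that left out 1 library, and it was also 7 without rIL-33 replicate 3 or rIL-33/rIL-13 replicate 3. All 14 alveolar macrophage markers were in the tables, with none at 0 throughout a group, and their sum was 14700 to 14900 TPM with rIL-33/rIL-13, 7783 to 8368 TPM with rIL-33, 16720 to 17200 TPM with rIL-13 and 8057 to 8188 TPM in Untreated. Marco, 1 of the 14, lay at 0.202 to 0.568 TPM over the 12 libraries and was not tested. Chil3, which rose with rIL-13, led the sum in both groups with rIL-13. Here and in the sums that follow, the leading gene is not thereby the most abundant, since TPM is scaled by gene span. Of 14 fibroblast markers 8 were in the tables, and their sum was 18.4 to 19.4 TPM with rIL-33/rIL-13, 26.4 to 28.8 TPM with rIL-33, 21.9 to 23.9 TPM with rIL-13 and 25.7 to 27.6 TPM in Untreated, most of it from Pdpn. Dcn was at 0 throughout rIL-33/rIL-13 and Col1a1 throughout Untreated, and the part of such cells in the results was not tested. Of 13 mast cell and basophil markers only Cd200r3 was in the tables, at 0.054 TPM or less, and the rest were not analysed here. Of 18 markers of lymphocytes and innate lymphoid cells 4 were in the tables. Their sum was 154 to 166 TPM with rIL-33/rIL-13 and 179 to 184 TPM with rIL-33. It was 162 to 170 TPM with rIL-13 and 168 to 190 TPM in Untreated, most of it from Il7r. The sums of epithelial, endothelial and dendritic cell markers reached 20.7, 11.7 and 4.86 TPM. The part of these cell types was not tested either.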

How the data were processed

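RNA was extracted with the RNeasy micro plus kit and sequenced on a NovaSeq6000, per the labels. Reads were aligned to mm10 with STAR, per the submitters' processing notes. The sources used here give no version, counting tool or strand handling. The deposited values are TPM per gene, made by the authors with the gene span, and whole reads could be recovered from them for 89.94 to 91.39% of low values (within 0.05 reads, up to 20 reads). Depth was 9.13 to 12.9 M recovered reads per library.

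Values were taken as log2(TPM + 1). Genes with 1 TPM in at least 3 libraries entered limma 3.58.1 (R 4.3.3, trend, 8 group means, 16 residual degrees of freedom), with Benjamini-Hochberg adjustment over all 13215 genes and an adjusted p under 0.05 as the threshold. The median standard error of the interaction was 0.107 for genes averaging 10 TPM or more and 0.22 for the others. Alternatives were other pseudocounts, filters, scaling and weights, limma-voom on recovered reads, a fit of 12 libraries and leaving out each library. Named genes were up to 6 per class and direction with the largest interaction among genes of at least 5 TPM in 1 group, up to 4 called members per list, and a fixed panel. Others are said to have been picked after their values were seen. The comparison, lists and panel were chosen with earlier results of these data known.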

Additional observations from a re-analysis of the deposited data

How the results depend on the processing

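The 155 called interactions became 418 (187 higher, 231 lower) with array weights. They became 109 in a fit of the 12 libraries alone, with 32 higher. Counts were 153 and 173 with pseudocounts of 0.5 and 5, 186 without a filter, 159 with a filter of 5 TPM, 203 with median-ratio scaling and 172 with limma-voom. Of the 155 genes, 87 were still called in the fit of 12 libraries, 116 with median-ratio scaling and 108 with limma-voom. With single libraries left out, the count ranged from 114 (without rIL-13 replicate 3) to 152, with 35 to 53 higher and 75 to 115 lower. Between 110 and 126 of the 155 were still called, and all 155 kept their sign. The share dampened, cancelled or reversed was 93.33%, 88.31% with limma-voom and 90.84 to 95.69% with single libraries left out. With the band for cancelled at 0.1 or 0.5, 12 or 72 genes were cancelled and 90 or 37 dampened. The cell cycle list had 7, 8 and 10 calls with a pseudocount of 5, median-ratio scaling and array weights, against 4. The rIL-33/rIL-13 against rIL-13 count was 814 with array weights, and 212 to 339 with single libraries left out (212 without rIL-13 replicate 1 or 3, 217 without rIL-33/rIL-13 replicate 3). The rIL-33 against Untreated count was 1 in the fit of 12 libraries and 0 with single libraries left out, as was the difference between the sets with and without rIL-17A. The rIL-13 count was 3326 to 3916 without rIL-33 and 2619 to 3217 with it. In genes chosen on other libraries, 60.95 to 74.45% of raised and 64.12 to 74.7% of lowered genes had the change of smaller size with rIL-33. The interaction with rIL-17A had 105 to 237 calls with single libraries left out, and the count was 105 and 132 without rIL-17A replicates 2 and 1, 125, 123 and 124 without rIL-13/rIL-17A replicates 1 to 3, and 123 and 129 without rIL-33/rIL-17A replicates 2 and 3. The cause of these shifts was not tested. Of 69 named called genes, 34 were called in all 20 settings and none reversed. Genes with means under 10 TPM in all 4 groups without rIL-17A had the larger standard errors, which limits what they can show. No paired analysis was possible because the labels give no replicate numbers that pair libraries across groups. Library numbers ran from 1 to 23 except for rIL-33 replicate 3 (30), rIL-33/rIL-17A replicates 2 and 3 (31 and 32) and rIL-33/rIL-13/rIL-17A replicate 3 (36). Whether these libraries were handled apart was not tested.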

Other observations

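In the libraries with rIL-17A, 107 genes had a called interaction that was not called without rIL-17A, and the following were picked out after their values were seen. Rrm2, a subunit of ribonucleotide reductase, averaged 5.75 TPM with rIL-33/rIL-13/rIL-17A, 3.59 TPM with rIL-33/rIL-17A, 16.2 TPM with rIL-13/rIL-17A and 3.18 TPM with rIL-17A (interaction -1.48, limma adjusted p = 0.0023). Without rIL-17A its interaction was -0.97 (limma adjusted p = 0.0534). Hmox1, heme oxygenase 1, averaged 445, 427, 529 and 425 TPM in rIL-33/rIL-13/rIL-17A, rIL-33/rIL-17A, rIL-13/rIL-17A and rIL-17A (-0.25, limma adjusted p = 0.00562). Mmp12, macrophage elastase, averaged 2713, 2242, 3086 and 2091 TPM in rIL-33/rIL-13/rIL-17A, rIL-33/rIL-17A, rIL-13/rIL-17A and rIL-17A (-0.29, limma adjusted p = 0.00405), against -0.16 without rIL-17A (limma adjusted p = 0.143). Cd36, a scavenger receptor for oxidised lipids, had -0.29 (limma adjusted p = 0.00509) and -0.07 without rIL-17A (limma adjusted p = 0.82). Glmp, a lysosomal membrane protein, had 0.27 (limma adjusted p = 0.00537) and 0.19 without rIL-17A (limma adjusted p = 0.0654). The difference between the sets was not called for any of these genes.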
